A study of Drosophila melanogaster with 12 samples.

Results

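Enteroblasts of the fly gut that carried a hairpin against shavenbaby (svb) were compared with control enteroblasts over all genes. The comparison used 6 of the series' 12 RNA-seq libraries, chosen by their titles: 3 with a UAS-SvbRNAi transgene, and 3 controls from a cross of the driver line to the strain Canton-S, which carried no UAS hairpin. Flies of both groups also had esg-Gal4, UAS-GFP and the heat-sensitive repressor tubGal80TS, so the hairpin was driven wherever escargot is active, in intestinal stem cells as well as enteroblasts. All were virgin females, 9 days old, kept for 3 days at room temperature and then for 6 days at 29 °C, which releases Gal4. Posterior midguts (regions R3 to R5) of batches of females were pooled and dissociated, and cells with strong GFP and large size were sorted. The 3 replicates of a group were made on different days. The other 6 libraries carried UAS-SvbACT::GFP or UAS-Svb3Kmut::GFP (labelled SvbREP) on the same driver, with 3 libraries each.

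Shavenbaby is a zinc-finger transcription factor, 1 of the products of the gene ovo. It is made as a long repressor that the proteasome trims into a shorter activator after small Pri peptides have been made, and it is best known for shaping the actin-rich hairs of the embryonic epidermis. In the adult midgut, enteroblasts arise from intestinal stem cells under Notch signalling and mature into absorptive enterocytes. The comparison asks which genes of the enteroblast differ when a hairpin against svb is expressed.

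The 6 libraries held 3110008, 5511913 and 6205288 counts in the svb RNAi-labelled group and 4303746, 7114312 and 3853072 counts in the control. Spearman's correlation over genes was 0.962 to 0.973 between replicates and 0.913 to 0.949 between the groups. The 3 replicates differed among themselves by more than counting noise, with a common biological coefficient of variation of 34.6% over all 12 libraries. Values below are CPM, read counts scaled to library size by the TMM method. Log2 fold changes are svb RNAi-labelled over control with their SE, and adjusted p-values come from the F test of edgeR's quasi-likelihood model, adjusted over the 8069 genes tested by the Benjamini-Hochberg method. A gene is said to have risen or fallen where its adjusted p was under 0.05. These are bulk samples of sorted cells, so fewer cells of a kind and less RNA per cell cannot be told apart.

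The target gene did not show the loss its label would give. Reads of ovo (FBgn0003028, chromosome X, 5048273 to 5070929, plus strand; BDGP6.54) numbered 195, 126 and 97 in the svb RNAi-labelled libraries, or 61.1, 20.7 and 15.4 CPM, against 9, 117 and 1 in the control libraries, or 2.25, 16.3 and 0.279 CPM. The groups overlapped, and the difference was not called (log2 fold change 2.16 ± 0.83, adjusted p = 0.179). It passed only when control replicate 2, which held most of the control reads, was left out (log2 fold change 4.62, adjusted p = 0.00317). Reads of the hairpin itself were not told apart from those of the gene, so these counts do not check the knockdown. The group is therefore named here as it is labelled. The RNA lncRNA:CR44833, which lies on the opposite strand within ovo, had 29.8, 46.9 and 34.5 CPM, against 3.74, 3.77 and 0.279 CPM (log2 fold change 3.76 ± 0.54, adjusted p = 0.000211), and was singled out after its values were seen. The use of strand in counting is not given in the sources used here, so reads of overlapping genes, this pair included, may be shared between them.

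Markers of the sorted cells were present in both groups. The enteroblast factor klu had 439, 331 and 433 CPM in the svb RNAi-labelled libraries and 899, 662 and 796 CPM in the control. The Notch target E(spl)mbeta-HLH had 411, 377 and 552 CPM, against 406, 382 and 446 CPM, and did not pass the test (adjusted p = 0.817). Sox21a, which progenitors need to differentiate, had 443, 376 and 256 CPM, against 334, 413 and 222 CPM, with overlapping groups.

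Of the 8069 genes, 686 (8.50%) passed the test, and most of them were lower in the svb RNAi-labelled libraries: 537 genes fell (6.66%) and 149 rose (1.85%). The decreases were also the more numerous at every size. A change of at least 2-fold was seen for 106 of the genes that rose and 404 of those that fell, and one of at least 8-fold for 22 and 71. The median log2 fold change was 1.30 over the genes that rose, -1.41 over those that fell, and 0.02 over all genes tested. The 3 svb RNAi-labelled libraries lay wholly apart from the 3 controls in 148 of the 149 genes that rose and in all 537 that fell, as they did in 2509 of all 8069. Called genes had more reads and longer exons than most. The median level, not per length, was 6.80 on the log2 CPM scale for genes that fell and 5.50 for genes that rose, against 4.69 for all genes tested, and the median exon length was 3058 and 3066 bases, against 2107. Called genes were spread over the chromosome arms, between 6.81% on X and 9.41% on 2R.

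**Figure D1:**
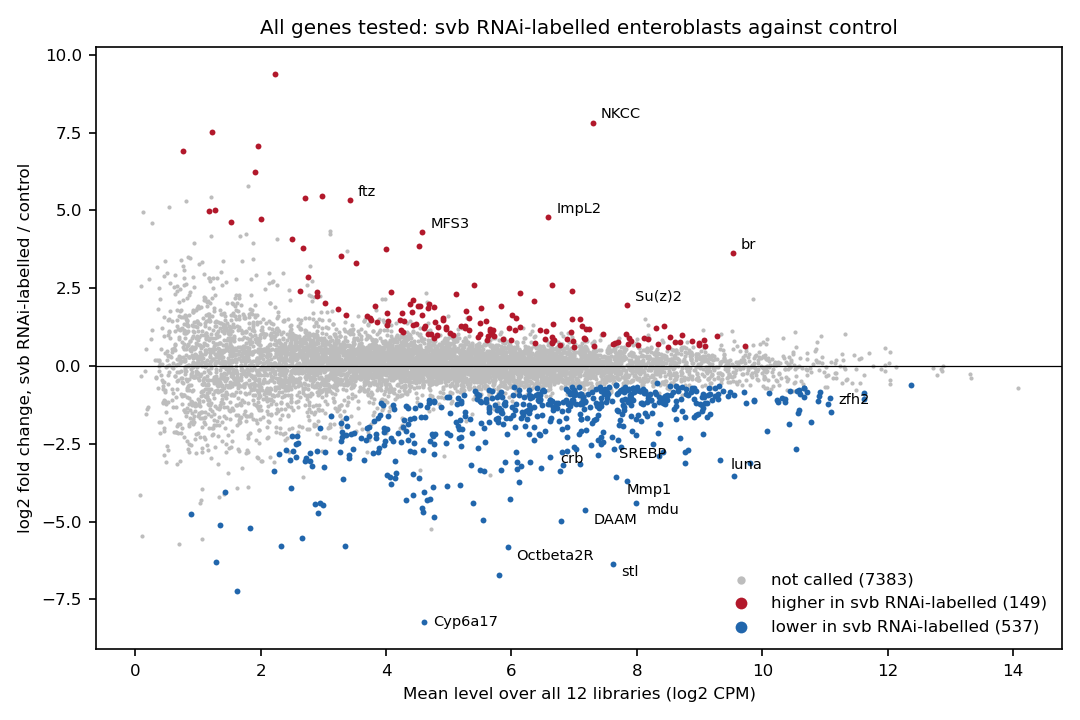
Each point is 1 of the 8069 genes tested, with its mean level over all 12 libraries (log2 CPM) on the x axis and its log2 fold change, svb RNAi-labelled over control, on the y axis. Red points (149) rose and blue points (537) fell at an adjusted p under 0.05; the blue points reach further into the abundant genes, and NKCC stands highest among the genes of its level.

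The counts moved with single libraries. Without svb RNAi-labelled replicate 3 the calls numbered 435 (93 higher, 342 lower), and without control replicate 3 they numbered 407 (76 higher, 331 lower). Without SvbREP replicate 3, a shallow library outside the groups compared, 932 genes passed, 287 of them higher. That library enters the filter on low counts, the scaling and the estimate of the spread. Decreases made up 68.4% to 84.5% of the calls under all alternatives run. The authors' deposited table calls 228 genes higher and 600 lower. Of the 686 genes called here, 680 are called there in the same direction, and none in the opposite one.

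The 10 largest increases were taken among called genes with a mean log2 CPM of 2 or more over all 12 libraries. They included a transporter, signalling molecules and a homeobox factor, all scarce in the control. NKCC (FBgn0051547, chromosome 3R, 5489505 to 5502702, minus strand), the sodium-potassium-chloride cotransporter, had 670.2, 653 and 537 CPM in the svb RNAi-labelled libraries, against 3.49, 2.65 and 1.95 CPM in the control (log2 fold change 7.82 ± 0.68, adjusted p = 1.69e-05). Its 3 svb RNAi-labelled libraries lay close together, and each was far above every control. The pair-rule homeobox gene ftz (FBgn0001077, chromosome 3R, 6864324 to 6866244, plus strand) had 41.1, 28.2 and 50.7 CPM, against 1.75, 0.279 and 1.12 CPM (log2 fold change 5.34 ± 0.67, adjusted p = 5.84e-05). ImpL2, a secreted protein that binds insulin-like peptides and dampens insulin signalling, had 189, 425 and 352 CPM, against 8.24, 22.5 and 2.23 CPM (log2 fold change 4.79 ± 0.93, adjusted p = 0.00904). Its exons overlap those of CG46460. The activin-like ligand gene daw had 6.90, 21 and 34.3 CPM, against 0, 0.559 and 0.837 CPM (log2 fold change 5.41 ± 1.01, adjusted p = 0.00187).

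Among the others of the 10, MFS3, a transporter of the major facilitator family, had 52, 86.5 and 69.6 CPM, against 3.99, 4.89 and 1.12 CPM (log2 fold change 4.31 ± 0.52, adjusted p = 3.92e-05). Ccdc39, whose vertebrate counterpart helps to build motile cilia, had 30.1, 95.5 and 82 CPM, against 4.99, 4.47 and 4.74 CPM (log2 fold change 3.87 ± 0.47, adjusted p = 4.34e-05). The receptor gene for allatostatin A, AstA-R1, had 16.6, 21.3 and 4.45 CPM, against 0.998, 0.838 and 0.558 CPM (log2 fold change 4.09 ± 0.75, adjusted p = 0.00157). In each of these 3 genes every svb RNAi-labelled library lay above every control. The gene rdo rose as well (log2 fold change 5.47 ± 0.90, adjusted p = 0.000630), with 21.3, 13.8 and 44 CPM against 0.998, 0.279 and 0.558 CPM. Gbs-76A, a glycogen-binding subunit of protein phosphatase 1, had only 3 counts in all control libraries together, and its ratio was 30 with a 95% counting interval of 9.95 to 148. The RNA lncRNA:CR44138 had 10, 91 and 184 counts, against none in any control library, which makes it at least 89.9-fold higher when the control is set at 3 counts over the group.

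Among the 15 largest decreases, Cyp6a17, a cytochrome P450, had 0, 0 and 1 counts in the svb RNAi-labelled libraries, against 74, 173 and 128 counts in the control. Its level was 396-fold lower with a 95% counting interval of 70.7 to 15700 (adjusted p = 1.25e-05). The metalloprotease gene stl, known for its role in ovarian follicles, had 4.39, 1.80 and 6.83 CPM, against 274, 231 and 569.8 CPM (log2 fold change -6.35 ± 0.75, adjusted p = 0.000347). Octbeta2R, a receptor for octopamine, had 2.82, 1.31 and 1.91 CPM, against 112, 85.5 and 131 CPM (log2 fold change -5.82 ± 0.39, adjusted p = 1.20e-07), and the microRNA gene mir-284 lies within it. DAAM (FBgn0025641, chromosome X, 1289713 to 1322362, minus strand), a formin that elongates actin filaments, had 6.27, 3.61 and 4.29 CPM, against 115, 68.6 and 155 CPM (log2 fold change -4.61 ± 0.39, adjusted p = 1.86e-06). All 4 genes had control values above every svb RNAi-labelled value. Syt4, a synaptotagmin of vesicle fusion, had 1.25, 0 and 0.953 CPM, against 38.2, 39.9 and 37.4 CPM (log2 fold change -5.79 ± 0.83, adjusted p = 0.000352).

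Of the remaining 10, CG15186 (-4.94 ± 0.58) and the esterase gene alpha-Est1 (-4.85 ± 0.82) fell in every fit that left out a library. Pkg21D, a cGMP-dependent protein kinase, fell (-4.98 ± 0.60), as did CG3544 (-4.70 ± 0.77), but the exons of these 2 genes overlap. The lncRNA:CR45215 fell too (-4.73 ± 0.74) and overlaps the copper transporter gene Ctr1B. CG1998 and acs had no counts in the svb RNAi-labelled libraries and 5, 6 and 7, and 2, 8 and 6, in the control. With a floor of 3 counts over the group, CG1998 was at least 6.34-fold and acs at least 5.64-fold lower. Both were thus scarce in the 2 groups compared. The minimum level for this ranking was a mean over all 12 libraries, so levels in SvbACT and SvbREP counted towards it. Of CG17145 the call was lost with a library left out (adjusted p 0.0658 to 0.0820 without svb RNAi-labelled replicates 1, 2 or 3), and likewise of acs (adjusted p 0.0523 to 0.0631 without svb RNAi-labelled replicates 2 or 3 or control replicate 3), CG13654 (adjusted p 0.0593 to 0.0866 without svb RNAi-labelled replicates 1 or 3 or control replicate 3) and CG30271 (adjusted p 0.0752 to 0.124 without svb RNAi-labelled replicates 1, 2 or 3 or control replicates 1 or 3).

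**Figure D2:**
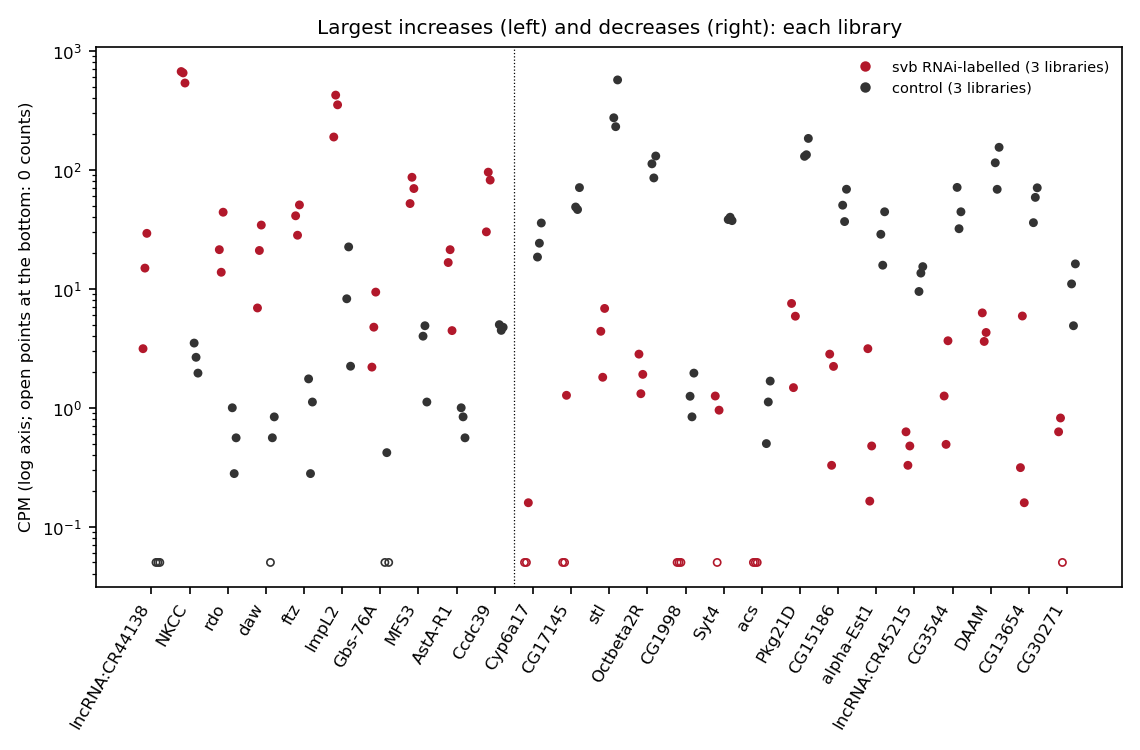
Points are the CPM of single libraries on a log axis, red for the 3 svb RNAi-labelled and dark for the 3 control libraries of each gene; open points at the bottom mark 0 counts. Left of the dotted line are the 10 largest increases and right of it the 15 largest decreases; NKCC sits between 537 and 670.2 CPM in the svb RNAi-labelled libraries and under 4 CPM in every control.

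Genes of lipid synthesis and storage formed the list with the most decreases. Of its 40 tested genes 17 fell (42.5%) and none rose, and 33 of the 40 had a log2 fold change below 0, with a median of -0.80. Leaving out a library gave 13 to 16 decreases. SREBP (FBgn0261283, chromosome 3L, 19793935 to 19798979, plus strand), the transcription factor that switches on fatty acid synthesis, had 118, 103 and 59.4 CPM in the svb RNAi-labelled libraries, against 569.6, 611 and 709.9 CPM in the control (log2 fold change -2.75 ± 0.28, adjusted p = 8.04e-06). The fatty acid synthase gene FASN1 had 207, 160.3 and 95.8 CPM, against 651, 779 and 666 CPM (log2 fold change -2.18 ± 0.29, adjusted p = 9.37e-05). Hnf4, a nuclear receptor that governs lipid use, had 137, 101 and 138 CPM, against 348, 334 and 329 CPM (log2 fold change -1.43 ± 0.18, adjusted p = 6.23e-05). Each control library of these 3 genes held more than 2 times the level of any svb RNAi-labelled library.

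The enzymes that feed fatty acid synthase fell with it. ATPCL, which splits citrate into acetyl-CoA, had 187, 280.1 and 179 CPM, against 479, 546 and 622 CPM (log2 fold change -1.35 ± 0.27, adjusted p = 0.00369). ACC, which makes malonyl-CoA, had 200.0, 239.8 and 156 CPM, against 475, 506 and 644 CPM (log2 fold change -1.45 ± 0.29, adjusted p = 0.00357). AcCoAS, which makes acetyl-CoA from acetate, was scarcer, at 6.90, 9.01 and 2.86 CPM against 26.5, 15.9 and 30.7 CPM (log2 fold change -1.96 ± 0.40, adjusted p = 0.00391). Genes that act later in lipid use also fell: the acyl-CoA synthetase Acsl (log2 fold change -1.20 ± 0.19), the fatty acid elongase Baldspot (-1.04 ± 0.18), the phosphatidate phosphatase Lpin (-1.16 ± 0.21), the acyltransferase Agpat3 (-1.06 ± 0.19), Pect of phosphatidylethanolamine synthesis (-1.69 ± 0.23), the lipophorin receptor LpR2 (-2.19 ± 0.32) and the transporter Abca3 (-1.70 ± 0.27). The triglyceride lipase bmm (-1.58, adjusted p 0.0709 to 0.0718 without svb RNAi-labelled replicates 2 or 3), the sterol carrier Npc2a (-1.43, adjusted p 0.0844 to 0.116 without svb RNAi-labelled replicates 1 or 2 or control replicate 3), the lipid droplet protein Lsd-2 (-0.86, adjusted p 0.0517 to 0.178 without svb RNAi-labelled replicates 1 or 2 or control replicates 2 or 3) and the carnitine palmitoyltransferase whd (-0.73, adjusted p 0.0562 to 0.238 without any 1 of the 6 libraries) had calls that hung on single libraries. Desat1, the main fatty acid desaturase, had 219, 232 and 212 CPM, against 227, 196 and 191 CPM, with overlapping groups (adjusted p = 0.808). SREBP, Hnf4, Pect, Abca3, Lpin, ATPCL and whd share exon positions with other annotated genes.

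**Figure D3:**
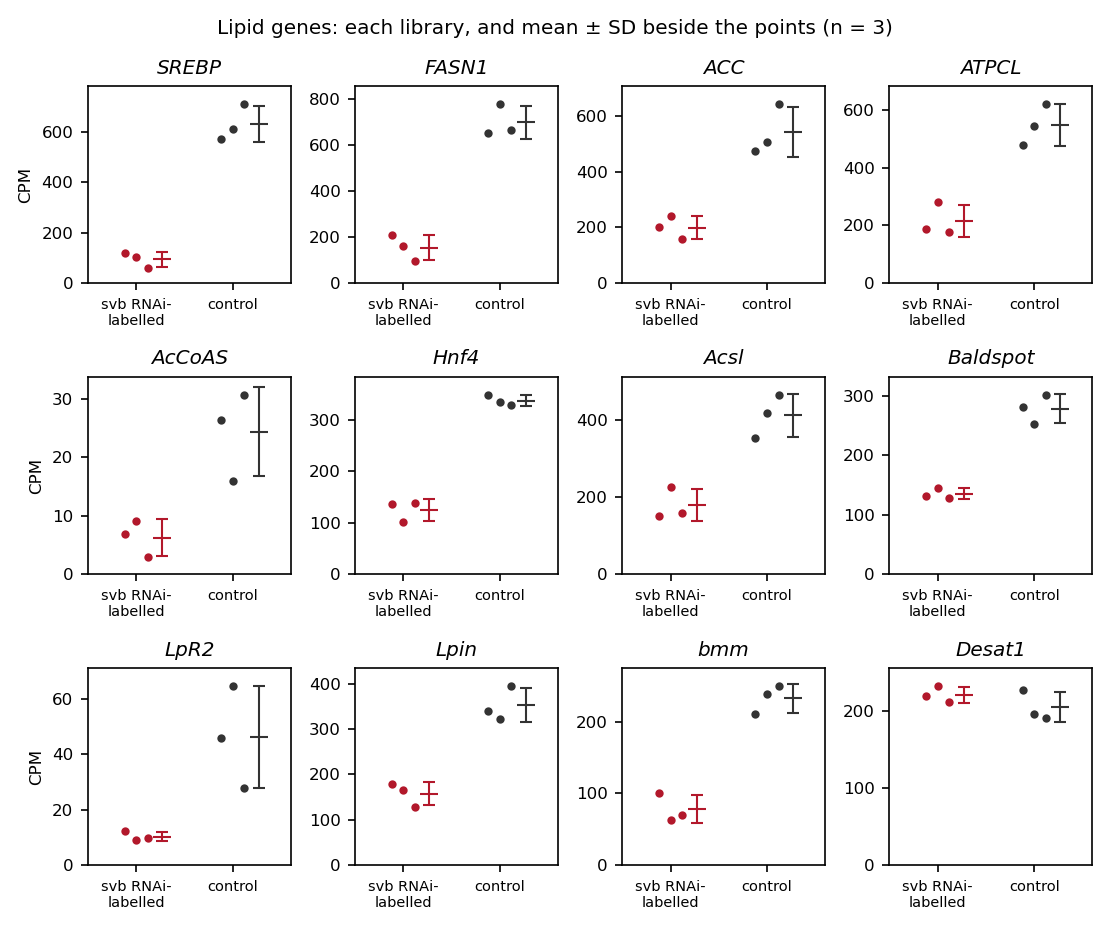
Each panel gives the CPM of 1 lipid gene in the 3 svb RNAi-labelled (red, left) and 3 control libraries (dark, right), with the mean ± SD of the 3 beside the points; the y axes start at 0. In 11 of the 12 panels every red point lies below every dark one, and in Desat1 the groups overlap.

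Other metabolic lists were smaller and more mixed. In the list of glycolysis and the citric acid cycle, 3 of 48 genes rose and 3 fell. The shares were 6.25% each way, beside 1.85% of all genes that rose and 6.66% that fell. PCB, the pyruvate carboxylase, had 145, 162 and 116 CPM, against 33.9, 46.8 and 16.7 CPM (log2 fold change 2.10 ± 0.30, adjusted p = 0.000197), and shares exon positions with an antisense RNA. The calls of lactate dehydrogenase, Ldh (2.61, adjusted p 0.0534 to 0.0854 without svb RNAi-labelled replicates 2 or 3 or control replicates 1 or 3), and phosphofructokinase, Pfk (1.09, adjusted p 0.0514 to 0.0599 without svb RNAi-labelled replicate 2 or control replicates 1 or 3), both higher, were lost without single libraries. So were the decreases of Treh (-0.83, adjusted p 0.0512 to 0.108 without svb RNAi-labelled replicate 1 or control replicates 1 or 2), Ogdh (-0.82, adjusted p 0.0598 to 0.122 without any 1 of the 6 libraries) and Men-b (-0.62, adjusted p 0.0950 to 0.319 without any 1 of the 6 libraries). Genes of the respiratory chain and ATP synthase (1 of 87 called, ATPsyngamma, -0.82, adjusted p 0.0596 to 0.190 without svb RNAi-labelled replicates 1 or 3 or control replicates 1, 2 or 3), the cytoplasmic ribosomal proteins (0 of 79) and the mitochondrial ribosomal proteins (0 of 71) were rarely called, and their medians were 0.06, 0.02 and 0.19.

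Families of detoxification enzymes differed from each other, beside 6.66% of all genes that fell and 1.85% that rose. Of 19 UDP-glycosyltransferases, which attach sugars to small molecules, 7 fell (36.8%) and 1 rose, with a median log2 fold change of -1.01. Ugt303B1 had 24.1, 40.3 and 37 CPM in the svb RNAi-labelled libraries, against 162, 179.8 and 277 CPM in the control (log2 fold change -2.60 ± 0.26, adjusted p = 6.39e-06), and its relatives Ugt303B3 (-3.13 ± 0.38) and Ugt303A1 (-2.82 ± 0.39) fell with it. So did Ugt304A1 (-2.15 ± 0.33) and Ugt305A1 (-1.48 ± 0.26). The calls of Ugt303B2 (-2.84, adjusted p 0.0700 to 0.172 without svb RNAi-labelled replicates 1 or 3 or control replicates 2 or 3), Ugt36D1 (-4.04, adjusted p 0.0753 to 0.197 without any 1 of the 6 libraries) and, in the upward direction, Ugt302K1 (1.47, adjusted p 0.0636 to 0.174 without svb RNAi-labelled replicates 2 or 3 or control replicates 1, 2 or 3) were lost with a library left out. Reads of close relatives in such families may be shared between copies, which makes single members less certain.

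A list taken by the symbol Cyp held 50 tested genes, chiefly cytochrome P450s, oxidases of foreign and internal compounds. Of these 50, 11 fell (22.0%) and 2 rose, with a median of -0.80. The count of decreases was 6 without svb RNAi-labelled replicate 1, 7 without svb RNAi-labelled replicate 2 and 4 without control replicate 3. Besides Cyp6a17, Cyp6a13 had 20.4, 24.6 and 25.6 CPM, against 78.9, 78.5 and 117 CPM (log2 fold change -1.95 ± 0.33, adjusted p = 0.000799). Cyp12a4 (log2 fold change -3.42 ± 0.59) fell too. So did Cyp1 (-0.93 ± 0.19), a cyclophilin and not a P450, which the counts of this list include. The other 7 decreases were lost without single libraries. Among them were Cyp9f3 (-2.25, adjusted p 0.0538 to 0.0540 without svb RNAi-labelled replicate 2 or control replicate 3), Cyp6d5 (-1.79, adjusted p 0.0551 without control replicate 3) and Cyp9c1 (-1.10, adjusted p 0.0769 to 0.0803 without svb RNAi-labelled replicate 1 or control replicate 3). The others were Cyp6a20 (-1.91, adjusted p 0.0643 to 0.123 without svb RNAi-labelled replicates 1 or 2 or control replicate 3), Cyp9f2 (-1.69, adjusted p 0.0501 to 0.0989 without svb RNAi-labelled replicates 1, 2 or 3 or control replicate 3), Cyp6a23 (-1.48, adjusted p 0.0651 to 0.118 without svb RNAi-labelled replicates 1 or 2 or control replicate 3) and Cyp305a1 (-1.16, adjusted p 0.0619 to 0.112 without svb RNAi-labelled replicates 1 or 3 or control replicates 2 or 3). Cyp4p1 rose (1.99 ± 0.37), while the rise of its neighbour in the family, Cyp4p2 (1.12, adjusted p 0.0543 to 0.0698 without svb RNAi-labelled replicate 3 or control replicate 3), depended on single libraries. Of 25 glutathione S-transferases 4 rose and 5 fell, with a median of 0.20. GstS1 had 42, 55.7 and 39.1 CPM, against 23.5, 13.3 and 15.9 CPM (log2 fold change 1.39 ± 0.27, adjusted p = 0.00227), and GstT4 (log2 fold change -2.58 ± 0.40), GstO3 (-1.20 ± 0.22) and GstE11 (-1.72 ± 0.33) fell. The 5 others of that list were lost without single libraries. Higher were GstD1 (0.86, adjusted p 0.0680 to 0.0843 without svb RNAi-labelled replicate 3 or control replicate 3), GstE6 (2.04, adjusted p 0.0699 to 0.0930 without svb RNAi-labelled replicates 2 or 3 or control replicates 1 or 3) and GstD9 (1.44, adjusted p 0.0606 to 0.150 without svb RNAi-labelled replicates 2 or 3 or control replicates 1, 2 or 3). Lower were se (-2.22, adjusted p 0.0517 to 0.113 without svb RNAi-labelled replicates 1, 2 or 3 or control replicate 3) and GstT3 (-1.01, adjusted p 0.0580 to 0.192 without any 1 of the 6 libraries).

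**Figure D4:**
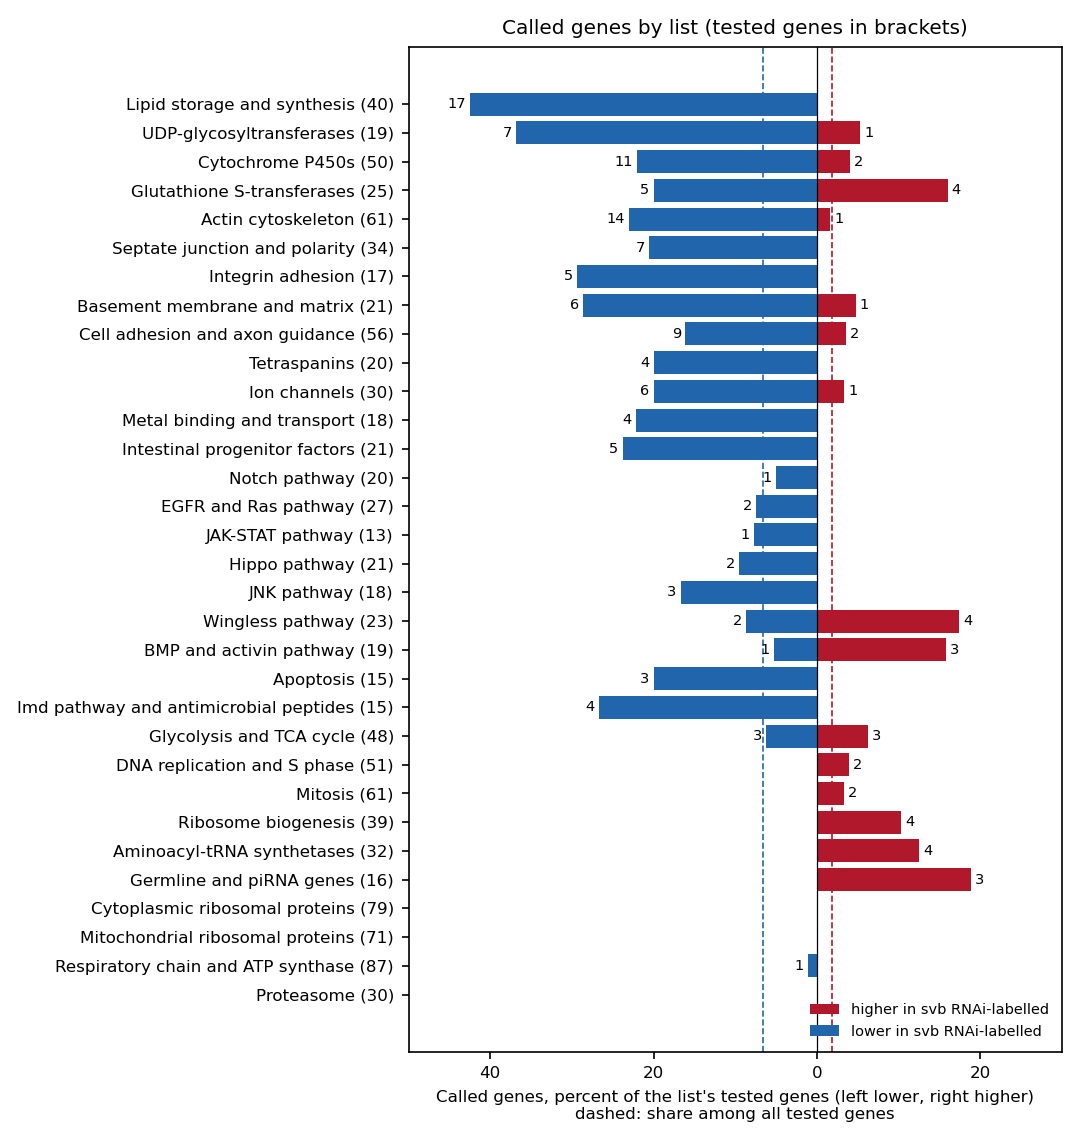
Bars give the percent of each list's tested genes (number in brackets) that rose (red, right) or fell (blue, left) in the svb RNAi-labelled libraries, with the number of genes at the end of each bar; dashed lines mark the shares among all 8069 genes, 1.85% and 6.66%. Lipid genes reach 42.5% lower and no higher, while the cytoplasmic and mitochondrial ribosomal proteins and the proteasome have no call.

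By number of decreases, though not by share, the actin cytoskeleton list came next after the lipid list. Smaller lists had larger shares, such as the UDP-glycosyltransferases (36.8%) and integrin adhesion (29.4%). Of 61 tested genes 14 fell (23%, beside 6.66% of all genes) and 1 rose, with a median of -0.36. There were 9 decreases without svb RNAi-labelled replicate 1 and 9 without replicate 3. Next to DAAM, the formin gene capu had 17.2, 7.54 and 18.9 CPM in the svb RNAi-labelled libraries, against 141, 105 and 186 CPM in the control (log2 fold change -3.31 ± 0.32, adjusted p = 4.07e-06). Fim, an actin-bundling fimbrin, had 807, 664 and 842 CPM, against 2274, 1745 and 2544 CPM (log2 fold change -1.50 ± 0.19, adjusted p = 6.55e-05). Both actin-related proteins that nucleate branched filaments fell. Arp2 had 109, 107 and 72.4 CPM, against 199.7, 201 and 213 CPM (log2 fold change -1.09 ± 0.19, adjusted p = 0.000906). Arp3 had 88.7, 92.3 and 54.3 CPM, against 153, 199 and 219.9 CPM (log2 fold change -1.28 ± 0.24, adjusted p = 0.00202). Myo31DF (log2 fold change -1.19 ± 0.19), an unconventional myosin that overlaps an antisense RNA, and the kinase Pak (-0.89 ± 0.19) fell as well. The remaining calls were those of Tm1 and of 7 genes lost without single libraries, trio (-0.84, adjusted p 0.0617 to 0.0811 without svb RNAi-labelled replicate 1 or control replicate 3), Act42A (-0.89, adjusted p 0.0690 without svb RNAi-labelled replicate 3), cpa (-0.82, adjusted p 0.0517 to 0.0796 without svb RNAi-labelled replicates 1 or 3 or control replicates 1 or 2), Act5C (-0.87, adjusted p 0.0517 to 0.176 without svb RNAi-labelled replicates 1, 2 or 3 or control replicates 1 or 2), flr (-0.94, adjusted p 0.0608 to 0.174 without svb RNAi-labelled replicates 1 or 3 or control replicates 1, 2 or 3), beta-Spec (-0.89, adjusted p 0.0718 to 0.258 without any 1 of the 6 libraries) and the formin Frl (0.68, adjusted p 0.0550 to 0.107 without svb RNAi-labelled replicates 1, 2 or 3 or control replicates 2 or 3), the only one that was higher. Act5C and Act42A are near-identical, so their reads may be shared.

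Genes of cell contacts and the surrounding matrix fell in part. Of 34 genes of septate junctions and epithelial polarity 7 fell (20.6%), with a median of -0.50. The polarity gene crb (FBgn0259685, chromosome 3R, 24295078 to 24314541, plus strand), a determinant of the apical membrane, had 22.9, 16.9 and 16.2 CPM in the svb RNAi-labelled libraries, against 150.3, 100.3 and 169.7 CPM in the control (log2 fold change -2.92 ± 0.26, adjusted p = 1.63e-06). The junction scaffold gene vari had 2.82, 3.11 and 3.97 CPM, against 20.7, 15.9 and 31.3 CPM (log2 fold change -2.74 ± 0.42, adjusted p = 0.000338), and overlaps Pomp. The other 5, Cont (-0.83, adjusted p 0.0525 to 0.0561 without svb RNAi-labelled replicates 2 or 3 or control replicate 3), Mcr (-1.08, adjusted p 0.0503 to 0.124 without svb RNAi-labelled replicates 1, 2 or 3 or control replicate 3), l(2)gl (-0.72, adjusted p 0.0690 to 0.216 without any 1 of the 6 libraries), sinu (-1.32, adjusted p 0.154 to 0.202 without svb RNAi-labelled replicates 1 or 2 or control replicates 2 or 3) and Nrx-IV (-1.17, adjusted p 0.0535 to 0.236 without any 1 of the 6 libraries), were lost without single libraries. The list's count was then 3 without svb RNAi-labelled replicate 1 or 3, 2 without svb RNAi-labelled replicate 2 or control replicate 3, and 4 without control replicate 2.

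Of 17 genes of integrin adhesion 5 fell (29.4%), with a median of -0.45. The integrin subunit gene Itgbn fell in every fit that left out a library (log2 fold change -1.69 ± 0.19, adjusted p = 2.21e-05). The calls of Pax (-0.86, adjusted p 0.0543 to 0.0583 without svb RNAi-labelled replicate 3 or control replicate 3), Fit1 (-0.91, adjusted p 0.0519 to 0.0612 without svb RNAi-labelled replicates 1 or 3 or control replicate 3), ItgaPS4 (-2.18, adjusted p 0.0582 to 0.0629 without svb RNAi-labelled replicate 3 or control replicate 3) and mew (-0.70, adjusted p 0.0587 to 0.0966 without svb RNAi-labelled replicates 1, 2 or 3 or control replicates 1 or 3) did not last, and 3 genes were called without svb RNAi-labelled replicate 1 and 1 without svb RNAi-labelled replicate 3 or control replicate 3. In the list of basement membrane and matrix, 6 of 21 genes fell (28.6%) and 1 rose, while its median was -0.02. Mmp1, a matrix metalloproteinase, had 30.4, 30.3 and 20.7 CPM in the svb RNAi-labelled libraries, against 333, 259.7 and 378 CPM in the control (log2 fold change -3.58 ± 0.29, adjusted p = 7.62e-07), and overlaps Pof. The laminin gene LanB2 had 109.7, 87 and 69.6 CPM, against 383, 332 and 467 CPM (log2 fold change -2.15 ± 0.22, adjusted p = 6.05e-06). Both genes showed separate groups. The laminin gene wb (-1.09 ± 0.22) and stl also fell. The proteoglycan dlp (-0.89, adjusted p 0.0609 without svb RNAi-labelled replicate 1), the metalloproteinase inhibitor Timp (-0.85, adjusted p 0.0753 to 0.126 without svb RNAi-labelled replicates 1 or 2 or control replicate 3) and the proteoglycan dally (0.74, adjusted p 0.0521 to 0.0660 without svb RNAi-labelled replicate 2 or control replicates 2 or 3), the last of them higher, lost their calls in single fits.

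Guidance and adhesion molecules known from axons changed in both directions, with 2 of 56 genes higher (3.57%) and 9 lower (16.1%), beside 1.85% and 6.66% of all genes. The list's median was -0.07 (0.02 with upper-quartile scaling). The secreted semaphorin gene Sema2b had 329, 438 and 215 CPM, against 74.1, 70.1 and 41.3 CPM (log2 fold change 2.40 ± 0.28, adjusted p = 2.25e-05). The membrane semaphorin gene Sema1a had 108, 74.2 and 109 CPM, against 398, 307 and 375 CPM (log2 fold change -1.89 ± 0.20, adjusted p = 1.25e-05). The Wnt5 receptor genes drl (log2 fold change -3.50 ± 0.47) and dnt (-2.46 ± 0.36), the cadherin Cad87A (-2.02 ± 0.28) and Sema5c (-1.40 ± 0.23) and Dscam1 (-1.05 ± 0.23) fell too. The falls of Ten-m (-1.57, adjusted p 0.0530 without svb RNAi-labelled replicate 2), robo2 (-1.16, adjusted p 0.0619 without control replicate 3) and unc-5 (-2.29, adjusted p 0.0588 to 0.0975 without svb RNAi-labelled replicates 1, 2 or 3 or control replicates 1 or 3) depended on single libraries. Of 20 tetraspanins, small membrane proteins, 4 fell (20%, beside 6.66% of all genes). Tsp29Fa had 9.40, 19.8 and 12.2 CPM, against 144, 121 and 147 CPM (log2 fold change -3.29 ± 0.27, adjusted p = 7.62e-07), Tsp29Fb (log2 fold change -2.47 ± 0.48) and Tsp42Ed (-1.60 ± 0.36) fell with it, and Tsp42Ea (-1.28, adjusted p 0.167 to 0.201 without svb RNAi-labelled replicates 1 or 3 or control replicates 1 or 3) was lost in single fits.

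Among 21 factors known from intestinal progenitors, 5 fell (23.8%, beside 6.66% of all genes) and none rose. The list's median of 0.05 was close to that of all genes. The zinc-finger homeodomain gene zfh2 had 1177, 855 and 1480.4 CPM in the svb RNAi-labelled libraries, against 3073, 2294 and 2788 CPM in the control (log2 fold change -1.22 ± 0.22, adjusted p = 0.00150), and overlaps Tdg. Sox100B had 373, 339 and 280.3 CPM, against 623, 598 and 737 CPM (log2 fold change -0.98 ± 0.19, adjusted p = 0.00240). The gene klu, whose values are given above, fell (log2 fold change -0.97 ± 0.20, adjusted p = 0.00394). The GATA factor GATAe (-0.72, adjusted p 0.0572 to 0.136 without svb RNAi-labelled replicates 2 or 3 or control replicates 1, 2 or 3) and Dif (-0.68, adjusted p 0.0714 to 0.195 without any 1 of the 6 libraries) were lost with a library left out, and the list then held 3 calls without svb RNAi-labelled replicate 2 or 3 and without any 1 control.

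Of the pathways that steer progenitors, Notch, EGFR, JAK-STAT and Hippo had shares of decreases near the 6.66% of all genes. The shares were 5%, 7.41%, 7.69% and 9.52% in that order, and no gene of these lists was called higher. In the Notch list 1 of 20 genes passed, fng, a glycosyltransferase that tunes Notch, with 128, 127 and 63.5 CPM against 293, 280.2 and 352 CPM (log2 fold change -1.54 ± 0.24, adjusted p = 0.000491), and it overlaps CG10589. The receptor gene N itself had 931, 934 and 899.7 CPM, against 771, 788 and 839 CPM (adjusted p = 0.599). In the EGFR list of 27, the receptor gene Egfr had 1005, 861 and 850.3 CPM, against 1944, 1474 and 2039.6 CPM (log2 fold change -1.01 ± 0.20, adjusted p = 0.00272), and the fall of the ligand vn (-1.22, adjusted p 0.0888 to 0.194 without svb RNAi-labelled replicates 1, 2 or 3 or control replicates 2 or 3) hung on single libraries. In the JAK-STAT list of 13, the transcription factor gene Stat92E had 713, 711 and 841 CPM, against 1719.8, 1339 and 1997 CPM (log2 fold change -1.16 ± 0.20, adjusted p = 0.00106). In fng, Egfr and Stat92E every svb RNAi-labelled library lay below every control.

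In the Hippo list of 21, crb and the kinase msn (-0.71, adjusted p 0.0599 to 0.0965 without svb RNAi-labelled replicates 1 or 2 or control replicates 1 or 3) fell. Of 19 genes of the BMP and activin pathways 3 rose (15.8%, beside 1.85% of all genes) and 1 fell. Besides daw, magu (log2 fold change 1.87 ± 0.30) and cv-2 (0.81 ± 0.18), both of secreted modulators of BMP signalling, rose, and Mad, the transcription factor of the BMP pathway, had 313, 217 and 289 CPM, against 801, 547 and 625 CPM (log2 fold change -1.27 ± 0.23, adjusted p = 0.00160). Of 23 Wingless pathway genes 4 rose (17.4%) and 2 fell (8.7%), with a median of 0.22. The receptor fz (log2 fold change -2.10 ± 0.45) fell in every fit that left out a library. The rises of nkd (0.90, adjusted p 0.0582 without control replicate 3), Wnt5 (1.47, adjusted p 0.0604 to 0.0858 without svb RNAi-labelled replicates 1 or 2 or control replicates 2 or 3), Axn (0.60, adjusted p 0.0540 to 0.148 without any 1 of the 6 libraries) and of dally, and the fall of dlp, did not, and the list held 2 rises without svb RNAi-labelled replicate 1, 1 without svb RNAi-labelled replicate 2 or control replicate 2, and 0 without control replicate 3. In the insulin and TOR list of 20, ImpL2 rose and the translation inhibitor Thor (-0.91, adjusted p 0.0674 to 0.154 without svb RNAi-labelled replicates 1 or 2 or control replicates 1, 2 or 3) fell.

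Among 19 homeotic and homeobox genes, ftz and Abd-B rose, vnd and zfh2 fell, and 15 were not called. The shares were 10.5% each way, beside 1.85% of all genes that rose and 6.66% that fell. Abd-B, the Hox gene of the posterior body, had 52.3, 51.1 and 51.8 CPM in the svb RNAi-labelled libraries, against 11.2, 6.98 and 11.7 CPM in the control (log2 fold change 2.38 ± 0.43, adjusted p = 0.00133). The gene br (broad), a zinc-finger factor that answers to ecdysone, had 1120.3, 766 and 1120.2 CPM, against 115, 63.4 and 63.9 CPM (log2 fold change 3.64 ± 0.39, adjusted p = 4.30e-05), and overlaps Mur2B. It was 1 of 2 genes called among 18 of the ecdysone pathway, the other being Cth (-1.09, adjusted p 0.0509 to 0.146 without svb RNAi-labelled replicates 1 or 3 or control replicates 1, 2 or 3). The neural homeobox gene vnd had 103, 99.8 and 95.8 CPM, against 344, 203 and 219 CPM (log2 fold change -1.36 ± 0.23, adjusted p = 0.000906).

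A few more genes were singled out after their values were seen. Su(z)2, a Polycomb-group relative of Psc, had 564, 409 and 655 CPM, against 162, 131 and 121 CPM (log2 fold change 1.97 ± 0.22, adjusted p = 2.03e-05). Psc (1.05 ± 0.24, adjusted p 0.0518 without control replicate 3) and Pcl (0.65 ± 0.17, adjusted p 0.0561 to 0.0776 without svb RNAi-labelled replicates 1 or 3 or control replicates 2 or 3) were higher as well, while ph-p missed the threshold (log2 fold change 0.62 ± 0.19, adjusted p = 0.0566). These were the 3 called of 17 tested Polycomb-group genes, a set put together after the values were seen, whose median was 0.19. The Krüppel-like factor gene luna had 134, 84.4 and 142 CPM, against 1028, 696 and 1208 CPM (log2 fold change -3.03 ± 0.39, adjusted p = 0.000223). Pvr, the receptor for growth factors of the PDGF and VEGF kind, had 81.2, 66.9 and 39.9 CPM, against 321, 344 and 345 CPM (log2 fold change -2.43 ± 0.27, adjusted p = 1.37e-05). Adgf-A, a secreted adenosine deaminase, had 12.5, 10.3 and 6.51 CPM, against 80.9, 82.4 and 79.3 CPM (log2 fold change -3.07 ± 0.25, adjusted p = 7.62e-07). The groups lay apart in all 6 of these called genes. The gene mdu (FBgn0030396, chromosome X, 12497188 to 12516565, plus strand) had 27.9, 19.8 and 27.5 CPM, against 538, 487 and 568 CPM (log2 fold change -4.41 ± 0.25, adjusted p = 2.50e-08).

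Receptors and channels changed in a few members each. Of 7 receptors for amines, acetylcholine (muscarinic) and adenosine, 2 fell (28.6%), Octbeta2R and TyrR. TyrR, a receptor for tyramine, had 46.1, 34.7 and 53.9 CPM, against 265, 179 and 251 CPM (log2 fold change -2.37 ± 0.23, adjusted p = 5.33e-06). Of 30 ion channels 1 rose (3.33%) and 6 fell (20.0%), beside 1.85% and 6.66% of all genes. The mechanically gated channel gene Piezo, known in the midgut from precursors of enteroendocrine cells, had 71.8, 106 and 70.4 CPM, against 25.5, 29.7 and 23.7 CPM (log2 fold change 1.65 ± 0.29, adjusted p = 0.00106). The potassium channel gene KCNQ had 61.8, 67.9 and 94.7 CPM, against 372, 343 and 372 CPM (log2 fold change -2.27 ± 0.25, adjusted p = 1.54e-05), and overlaps CG18011. The fall of Ih (log2 fold change -0.95 ± 0.19) also lasted, while pain (-1.20, adjusted p 0.0505 to 0.112 without svb RNAi-labelled replicates 1, 2 or 3 or control replicates 1 or 3), Trpm (-0.78, adjusted p 0.0533 to 0.173 without any 1 of the 6 libraries), Best1 (-0.81, adjusted p 0.0649 to 0.193 without any 1 of the 6 libraries) and Itpr (-0.69, adjusted p 0.0796 to 0.261 without svb RNAi-labelled replicates 1 or 3 or control replicates 1, 2 or 3) were lost in single fits, which left 2 decreases without svb RNAi-labelled replicate 1 or 3 or control replicate 1 or 3 and 3 without svb RNAi-labelled replicate 2. In the cation-chloride cotransport list of 10, NKCC rose and the related Ncc69 (-1.74, adjusted p 0.0545 to 0.0854 without svb RNAi-labelled replicates 1 or 3 or control replicate 2) fell, 10.0% each way.

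Of 18 genes of metal binding and transport 4 fell (22.2%, beside 6.66% of all genes) and none rose. The metallothionein gene MtnA had 3.76, 1.80 and 1.75 CPM, against 37.2, 26.3 and 21.2 CPM (log2 fold change -3.60 ± 0.56, adjusted p = 0.000491), and ZnT41F (log2 fold change -1.42 ± 0.23) fell with it. Ctr1B (-2.93, adjusted p 0.0572 to 0.0856 without svb RNAi-labelled replicate 3 or control replicate 3) and ZnT86D (-0.91, adjusted p 0.0773 to 0.244 without any 1 of the 6 libraries) lost their calls, so that 2 were left without svb RNAi-labelled replicate 3 or control replicate 3. Of 33 autophagy and lysosome genes 3 fell (9.09%), a share near that of all genes, while 29 lay below 0 and 4 above, with a median of -0.19. The lysosomal transporter gene spin had 312, 296 and 234 CPM, against 829.7, 769 and 1030.3 CPM (log2 fold change -1.64 ± 0.21, adjusted p = 6.51e-05), and Lerp, the lysosomal enzyme receptor protein, had 23.8, 38.2 and 28.9 CPM, against 88.4, 82.8 and 127 CPM (log2 fold change -1.70 ± 0.25, adjusted p = 0.000254). The third was Hexo2 (-2.70, adjusted p 0.0546 to 0.179 without any 1 of the 6 libraries).

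Genes of cell death and innate immunity were lower where they were called, as were 78.3% of all called genes. The shares that fell were 20% (apoptosis), 16.7% (JNK), 26.7% (Imd) and 27.3% (Toll), beside 6.66% of all genes. Of 15 apoptosis genes 3 fell. The death inducer gene hid had 4.70, 1.80 and 6.83 CPM in the svb RNAi-labelled libraries, against 57.7, 37.8 and 54.4 CPM in the control (log2 fold change -3.48 ± 0.50, adjusted p = 0.000200). The caspase gene Decay had 13.5, 19.7 and 7.63 CPM, against 111, 109 and 126 CPM (log2 fold change -3.08 ± 0.31, adjusted p = 6.24e-06). The nicotinamidase gene Naam was the third (log2 fold change -1.69 ± 0.31, adjusted p = 0.00177). Of 18 JNK pathway genes 3 fell, with a median of -0.50, namely Mmp1, the TNF-like ligand egr (-0.88, adjusted p 0.0702 to 0.102 without svb RNAi-labelled replicates 1 or 2 or control replicate 3) and msn. In the Imd list of 15, the pathway inhibitor pirk had 76.2, 71.3 and 91.7 CPM, against 159.7, 135 and 178 CPM (log2 fold change -0.98 ± 0.19, adjusted p = 0.00242), and the recognition protein gene PGRP-LA had 35.4, 40.3 and 36.1 CPM, against 91.4, 100.0 and 87.9 CPM (log2 fold change -1.32 ± 0.27, adjusted p = 0.00431). The receptor PGRP-LC (-0.82, adjusted p 0.0528 to 0.0839 without svb RNAi-labelled replicates 1 or 2 or control replicates 1 or 3) and Tab2 (-0.76, adjusted p 0.112 to 0.188 without svb RNAi-labelled replicates 1, 2 or 3 or control replicates 1 or 3) lost their calls. In the Toll list of 11, cact (-1.11, adjusted p 0.0508 to 0.0636 without svb RNAi-labelled replicates 2 or 3 or control replicate 2), Myd88 (-0.89, adjusted p 0.0714 to 0.0961 without svb RNAi-labelled replicates 2 or 3 or control replicate 1) and Dif were lower and none was called in every fit that left out a library.

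Genes of growth and division had positive medians, and the share called higher ran from 0% to 12.5% by list, beside 1.85% of all genes. Of 61 mitosis genes 56 had a log2 fold change above 0, with a median of 0.57, and 2 passed the test, rod (log2 fold change 1.17 ± 0.25) and Incenp (1.19, adjusted p 0.104 to 0.120 without svb RNAi-labelled replicate 1 or control replicates 1 or 3). Without control replicate 2 the number was 5. Of 51 DNA replication genes 41 lay above 0, with a median of 0.37, and 2 passed, RfC4 (1.21, adjusted p 0.0816 to 0.137 without svb RNAi-labelled replicates 2 or 3 or control replicates 1 or 3) and RPA1 (0.96, adjusted p 0.0964 to 0.162 without svb RNAi-labelled replicates 2 or 3 or control replicates 1 or 3). Of 39 ribosome biogenesis genes 34 lay above 0, with a median of 0.38, and 4 passed (10.3%). They were Surf6 (1.22, adjusted p 0.0709 to 0.0719 without svb RNAi-labelled replicate 3 or control replicate 3), Nop60B (0.63, adjusted p 0.0620 to 0.145 without svb RNAi-labelled replicates 1, 2 or 3 or control replicates 1 or 3), Nop56 (0.73, adjusted p 0.0613 to 0.145 without svb RNAi-labelled replicates 2 or 3 or control replicates 1 or 3) and kra (0.67, adjusted p 0.0545 to 0.142 without svb RNAi-labelled replicates 1 or 3 or control replicates 1, 2 or 3). Of these, kra is a regulator of translation that the list and its share include. None of those 4 was called without svb RNAi-labelled replicate 3 or control replicate 3. Of 32 aminoacyl-tRNA synthetases, whose median was 0.17, 4 were called higher (12.5%). They were IleRS (0.72, adjusted p 0.0633 to 0.145 without svb RNAi-labelled replicates 2 or 3 or control replicates 1 or 2), SerRS (0.67, adjusted p 0.0686 to 0.168 without svb RNAi-labelled replicates 1, 2 or 3 or control replicates 1 or 3), AsnRS (0.79, adjusted p 0.0608 to 0.168 without svb RNAi-labelled replicates 2 or 3 or control replicates 1 or 3) and CysRS (0.85, adjusted p 0.103 to 0.186 without svb RNAi-labelled replicates 2 or 3 or control replicates 1 or 3). None of these 4 was called without svb RNAi-labelled replicate 2 or 3 or control replicate 1. Of 30 proteasome subunits 28 lay above 0, with a median of 0.31, and none passed the test.

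Of 16 germline and piRNA genes 3 rose (18.8%, beside 1.85% of all genes), with a median of 0.75. The piRNA-guided nuclease gene AGO3 had 93.1, 73.6 and 51.5 CPM in the svb RNAi-labelled libraries, against 27.7, 25.6 and 21.8 CPM in the control (log2 fold change 1.53 ± 0.29, adjusted p = 0.00196). The helicase gene spn-E of the same pathway had 22.9, 31.8 and 29.7 CPM, against 4.49, 10.6 and 6.98 CPM (log2 fold change 1.91 ± 0.36, adjusted p = 0.00205). The rise of piwi (1.20, adjusted p 0.0505 to 0.0543 without svb RNAi-labelled replicate 2 or control replicates 1 or 3) depended on single libraries. Of 21 heat shock genes 2 rose and 2 fell (9.52% each way, beside 1.85% and 6.66% of all genes). Among them were the Hsp70 copies Hsp70Bc (1.30 ± 0.30) and Hsp70Ba (-2.68 ± 0.42). These copies are near-identical and lay on opposite sides, so the split of reads between them is uncertain. The others were Hsc70-3 (0.66, adjusted p 0.0608 to 0.156 without svb RNAi-labelled replicates 1, 2 or 3 or control replicates 1 or 3) and stv (-0.74, adjusted p 0.0658 to 0.244 without svb RNAi-labelled replicates 1 or 3 or control replicates 1, 2 or 3).

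Of 20 epidermal targets of svb written down, 6 were tested. None of these 6 passed, beside 8.50% of all genes, and their log2 fold changes ran from -0.30 to 0.47 with a median of -0.16. Of 4 partners and processing factors of Svb, ovo included, none passed, with a median of 0.29.

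Among non-coding RNAs, 5 of 118 long non-coding RNAs rose and 5 fell (4.24% each way). Of 213 antisense RNAs 1 rose (0.469%) and 3 fell (1.41%). Of all genes 1.85% rose and 6.66% fell. Leaving out a library gave 3 or 4 rises and 3 to 5 decreases of long non-coding RNAs. There were 3 rises without svb RNAi-labelled replicate 2 or 3 or control replicate 1 or 3, and 3 decreases without control replicate 3. The decreases of antisense RNAs numbered 0 without svb RNAi-labelled replicate 3. The rise was that of asRNA:CR44029 (1.54, adjusted p 0.0575 to 0.215 without svb RNAi-labelled replicates 1 or 3 or control replicates 1, 2 or 3). The lncRNA:CR43144 had 3, 42 and 33 counts, against 0, 0 and 0 counts, which makes it at least 24.6-fold higher (adjusted p = 0.00917). The lncRNA:CR42651, within which mir-10 lies on the same strand, had 12.2, 12.9 and 2.86 CPM, against 88.1, 76.1 and 114 CPM (log2 fold change -3.33 ± 0.43, adjusted p = 0.000103). lncRNA:CR42839 (log2 fold change -1.68 ± 0.28) fell as well. The rises of lncRNA:CR44949 (7, 14 and 26 counts, against none in any control library, adjusted p 0.0627 to 0.106 without any 1 of the 6 libraries) and lncRNA:CR43264 (3.80, adjusted p 0.0561 to 0.250 without svb RNAi-labelled replicates 2 or 3 or control replicates 1 or 3) were lost without single libraries. So were the falls of lncRNA:CR40469 (-2.77, adjusted p 0.0520 to 0.0732 without svb RNAi-labelled replicate 1 or control replicate 3) and lncRNA:CR44206 (-1.10, adjusted p 0.0984 to 0.152 without svb RNAi-labelled replicate 2 or control replicate 3). The same held for the antisense RNAs asRNA:CR43472 (-3.04, adjusted p 0.0534 without svb RNAi-labelled replicate 3), asRNA:CR46071 (-3.20, adjusted p 0.0534 to 0.0630 without svb RNAi-labelled replicate 3 or control replicate 1) and asRNA:CR45714 (0, 1 and 2 counts, against 27, 48 and 29 counts in the control, adjusted p 0.0597 to 0.0858 without svb RNAi-labelled replicates 1, 2 or 3 or control replicate 3). All 4 called antisense RNAs overlap a coding gene, such as asRNA:CR46071 with Tsp29Fa, so their own level cannot be read here. Exon positions shared with another annotated gene also make the values of Adgf-A, Axn, CG30271, Ctr1B, Cyp1, Cyp9c1, CysRS, Dif, Dscam1, Frl, Hexo2, ItgaPS4, Itgbn, Lerp, MFS3, Mcr, Nop60B, Ogdh, Pax, SerRS, Spn42Da, Surf6, Ten-m, Timp, Tm1, Treh, Trpm, Tsp29Fa, Tsp29Fb, Tsp42Ea, Vha100-1, beta-Spec, cact, cpa, eIF2beta, lncRNA:CR42651, magu, mew, pain, piwi, pros, robo2, se, trio, unc-13 and unc-5 less certain.

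The remaining lists held few calls. In the list of protein folding and secretion (40 genes), SsRbeta (0.84, adjusted p 0.0532 without control replicate 3) and Hsc70-3 were higher and CrebA (-1.15, adjusted p 0.0803 to 0.0967 without svb RNAi-labelled replicates 1 or 2 or control replicate 1) was lower. Of 34 Rab and Arf GTPases Rab10 (-0.81, adjusted p 0.0622 to 0.0956 without svb RNAi-labelled replicates 1 or 3 or control replicate 3), Rab9 (-1.05, adjusted p 0.0579 to 0.126 without svb RNAi-labelled replicates 1, 2 or 3 or control replicates 2 or 3) and RabX1 (-0.76, adjusted p 0.105 to 0.248 without any 1 of the 6 libraries) were lower. Of 19 antioxidant genes GstS1, Prx2 (1.52, adjusted p 0.0529 to 0.0735 without svb RNAi-labelled replicates 2 or 3 or control replicates 1 or 3) and Trx2 (1.41, adjusted p 0.0601 to 0.119 without svb RNAi-labelled replicate 2 or control replicates 1, 2 or 3) were higher. In the vesicle fusion list (23 genes) unc-13 (0.95, adjusted p 0.0641 to 0.0643 without svb RNAi-labelled replicate 3 or control replicate 3) was higher and Syt4 was lower, and in the list of Sox, GATA and nuclear receptor factors (18 genes) Hnf4, Sox100B and GATAe were lower. Of 25 chemosensory and pickpocket receptors Ir40a (log2 fold change 3.55 ± 0.55), known from humidity sensing, rose and Gr89a (-5.20 ± 1.11) fell. Of 5 peptide hormone receptors 1 was called, AstA-R1. Of 43 translation factors eIF2beta (log2 fold change 0.90 ± 0.21) rose. Lists with 1 decrease each were the vacuolar proton pump (16 genes, Vha100-1 (-1.09, adjusted p 0.0524 to 0.0558 without svb RNAi-labelled replicate 3 or control replicate 3)), serine proteases and serpins (30 genes, Spn42Da (-0.83, adjusted p 0.0654 to 0.163 without any 1 of the 6 libraries)), chitin metabolism (16 genes, Chs2 (-1.52, adjusted p 0.0830 to 0.240 without svb RNAi-labelled replicates 1, 2 or 3 or control replicates 1 or 3)) and the wiring proteins of the immunoglobulin family (18 genes, beat-IIa (-0.90, adjusted p 0.0602 to 0.270 without any 1 of the 6 libraries)). Of the 16 proton pump genes 15 lay below 0 and 1 above, with a median of -0.38. No gene passed among 9 nicotinic and glutamate receptors, 5 cuticle proteins, 32 small nucleolar and nuclear RNAs and 1 stress peptide.

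Summed markers of several other cell types moved with the groups, in part through single genes, and their part in the results was not tested. Enteroendocrine markers summed to 2046 to 2481 CPM in the svb RNAi-labelled libraries, against 1380 to 1584 CPM in the control, with 18 of 23 genes above 0, of which Piezo and unc-13 were called, and 1 gene called lower, Syt4. Their defining factor pros had 29.2, 11.5 and 16.4 CPM, against 4.49, 8.10 and 3.63 CPM, and did not pass the test (adjusted p = 0.0914). The gene unc-13, whose call was lost without svb RNAi-labelled replicate 3 or control replicate 3, averaged 906 CPM of the sum, against 468 CPM. The hormone gene Tk was at 0, 7.87 and 53.1 CPM, against 0, 5.86 and 0 CPM. AstC was at 0.627, 10.0 and 0.635 CPM, against 1.5, 4.47 and 3.63 CPM. AstA was at 0, 0 and 0.477 CPM, against 0.749, 4.75 and 0 CPM. Dh31 was at 0, 4.59 and 22.6 CPM, against 0, 0.977 and 0 CPM. The groups overlapped in each of these hormone genes. Digestive enzymes and other enterocyte markers summed to 405 to 551 CPM, against 713 to 1430 CPM, with 2 of 38 lower, Myo31DF and Mal-A6 (-3.35, adjusted p 0.0524 to 0.0573 without svb RNAi-labelled replicates 2 or 3). Myo31DF, also in the actin list, averaged 241 CPM of this sum, against 550 CPM. Of the 38 genes 25 lay below 0 and 13 above. The enzyme gene Jon65Aiv had 12.2, 5.08 and 21.0 CPM, against 0.499, 4.89 and 21.5 CPM. Amy-p had 4.08, 4.26 and 13.7 CPM, against 3.24, 1.68 and 12.8 CPM. The factor nub had 17.6, 33.6 and 3.02 CPM, against 15.7, 35.5 and 5.02 CPM, so the groups overlapped in each of these genes.

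Muscle sarcomere genes summed to 10273 to 12440 CPM, against 13595 to 15880 CPM, with 3 of 17 lower, Zasp52 (log2 fold change -1.17 ± 0.23), Tm1 (-1.08 ± 0.23) and flr. Of the 17 genes 15 lay below 0 and 2 above, with a median of -1.08. The defining muscle gene Mhc was at 3.13, 3.44 and 2.22 CPM, against 6.99, 19.8 and 7.81 CPM, so nearly all of the sum came from other genes of the list. Hemocyte markers summed to 141 to 188 CPM, against 424 to 696 CPM, with 1 of 4 lower. That gene was crq, a scavenger receptor, which had 78.7, 74.4 and 86.1 CPM, against 399, 348 and 599 CPM (log2 fold change -2.49 ± 0.27, adjusted p = 1.25e-05), and overlaps ex. The defining hemocyte gene Hml was at 0 in all 6 libraries. Tracheal markers summed to 49.3 to 91.5 CPM, against 104 to 162 CPM, with 1 of 4 lower, sinu. Fat body markers summed to 139 to 203 CPM, against 67.5 to 88.9 CPM, with Cyp4p1 and Cyp4p2 higher. These 2 cytochrome P450s held most of the sum, averaging 36.1 and 131 CPM, against 9.17 and 60.6 CPM. The yolk gene Yp1 had 3.45, 0.656 and 0 CPM, against 6.74, 0 and 0 CPM. Yp2 had 4.39, 1.15 and 0 CPM, against 4.24, 0.14 and 0.837 CPM, so the groups overlapped in both. Neuron and glia markers summed to 474 to 589 CPM, against 621 to 725 CPM, with 1 of 11 lower (moody (-0.62, adjusted p 0.0819 to 0.242 without any 1 of the 6 libraries)). Malpighian tubule markers summed to 16.5 to 56.7 CPM, against 16.2 to 39.4 CPM, with none called.

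Several of the genes that differed from the control also differed from the transgenic groups, which share the driver. Among all genes, 665 (8.24%) passed the test against SvbACT and 702 (8.70%) against SvbREP, and these tests share the svb RNAi-labelled libraries with the main comparison. NKCC averaged 619.9 ± 72.6 CPM in the svb RNAi-labelled libraries, 1.80 ± 2.57 CPM in SvbACT, 1.85 ± 1.29 CPM in SvbREP and 2.70 ± 0.772 CPM in the control (SD, n = 3 each). It thus stood apart in the svb RNAi-labelled group alone among the 4, with log2 fold changes of 8.56 ± 0.71 over SvbACT and 8.70 ± 0.72 over SvbREP (adjusted p = 9.27e-06 and 1.18e-05). Su(z)2 averaged 542 ± 124 CPM, 115 ± 27.2 CPM, 119.9 ± 4.85 CPM and 138 ± 21.5 CPM in the same order of groups. Its svb RNAi-labelled level was above both other transgenic groups (adjusted p = 4.49e-06 and 7.36e-06).

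Among the decreases, SREBP averaged 93.7 ± 30.6 CPM in the svb RNAi-labelled libraries, 405 ± 79.2 CPM in SvbACT, 619 ± 199 CPM in SvbREP and 630.0 ± 72.1 CPM in the control (SD, n = 3 each). It was lower in the svb RNAi-labelled group than in either transgenic group (adjusted p = 6.88e-05 and 7.34e-06). The same held for crb, at 18.7 ± 3.68, 116 ± 6.63, 115 ± 29.3 and 140.1 ± 35.8 CPM in these groups (adjusted p = 2.48e-06 and 3.90e-06). DAAM averaged 4.72 ± 1.38 CPM, 395 ± 44 CPM, 62.5 ± 28 CPM and 113 ± 43.1 CPM, with the svb RNAi-labelled mean the lowest and the SvbACT mean the highest. LanB2 averaged 88.8 ± 20.1, 571 ± 51.7, 241 ± 36.6 and 394 ± 68.1 CPM, and its means had the same order.

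Other genes set the svb RNAi-labelled and SvbACT groups on the same side of the control. Mmp1 averaged 27.1 ± 5.61 CPM in the svb RNAi-labelled libraries, 54.4 ± 20.8 CPM in SvbACT, 411 ± 81.5 CPM in SvbREP and 324 ± 59.7 CPM in the control, and it was lower in the svb RNAi-labelled libraries than in SvbACT by a log2 fold change of -1.0 ± 0.28 (adjusted p = 0.0297). The gene br was high in both the svb RNAi-labelled and the SvbACT libraries, at 1002 ± 204 and 1814 ± 872 CPM, against 49.5 ± 18.1 CPM in SvbREP and 80.6 ± 29.4 CPM in the control. The difference between the svb RNAi-labelled and SvbACT levels of br did not pass the test (log2 fold change -0.86 ± 0.35, adjusted p = 0.174). Syt4 was near 0 in all 3 groups with a UAS transgene besides UAS-GFP, at 0.736 ± 0.655, 0 ± 0 and 0.202 ± 0.351 CPM, against 38.5 ± 1.30 CPM in the control. The transgene and the strain that carried it cannot be told apart here.

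**Figure D5:**
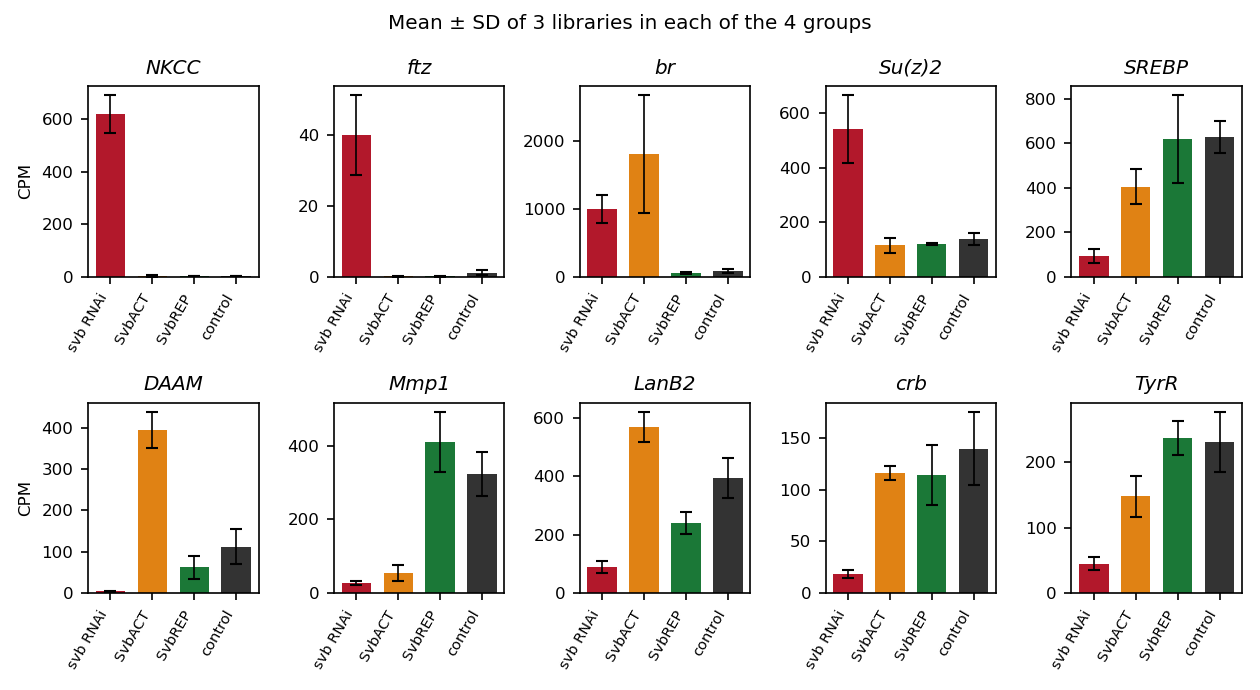
Bars are the mean CPM of 3 libraries and error bars the SD, in the order svb RNAi-labelled, SvbACT, SvbREP and control; every y axis starts at 0. NKCC, ftz and Su(z)2 are high in the svb RNAi-labelled bar alone, br is high in the svb RNAi-labelled and SvbACT bars, and SREBP, crb and TyrR are lowest in the svb RNAi-labelled bar.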

How the data were processed

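Sorted enteroblasts were sequenced as 12 libraries with the Ovation SoLo kit for low input and single reads of 100 nt, per the labels' protocols. The table deposited by the authors holds raw read counts for 8802 genes, and the submitters' processing notes name FastQC 0.11.5, STAR 2.5.2b, HTSeq 0.6.0, edgeR and the build dm6. How strand was used in counting is not given in the sources used here. The log2 fold changes, p-values and call scores (1, 0 or -1) in the same table were also deposited by the authors, and only the calls were set beside those made here.

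Counts were fitted in R 4.3.3 with edgeR 4.0.16, with 1 mean per group over all 12 libraries, TMM scaling, filterByExpr (8069 genes kept) and the robust quasi-likelihood F test, adjusted by Benjamini-Hochberg at a threshold of 0.05. The SE is the size of the log2 fold change over the square root of F. Of the 8802 genes, 8686 had a symbol in the Ensembl annotation of BDGP6.54, from which positions and exon overlaps were read; the 116 without one were tested but not named.

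Totals of the 6 libraries ran from 3110008 to 7114312 counts, so that 3 counts equal 0.419 to 0.940 CPM. A group at 0 was set to a floor of 3 counts over the group, and floors and intervals cover counting error only. That replicates came from separate animals is not stated beyond their different days, and p-values measure the spread between these libraries.

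The 69 gene lists, the members and the rules were chosen with earlier results of these data known, so counts over lists are descriptions and were given no test; 27 list names were not matched, and 1 list is not reported here. Named genes were ovo, the 10 largest increases and 15 largest decreases, the called genes of each list, first members of lists, and markers. The largest changes were taken among called genes whose groups did not overlap and whose mean log2 CPM over all 12 libraries was 2 or more. Others are said to be singled out after their values were seen. Fits were repeated without each replicate in turn, with a replicate block, with DESeq2 1.42.0, with the 6 libraries alone, against a minimum fold change, without robust estimation, and with other scalings and filters. A fit without SvbREP replicate 3 was added after the data were seen. Promoter sequences were not analysed here.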

Additional observations from a re-analysis of the deposited data

How the results depend on the processing

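The 686 calls (149 higher, 537 lower) became 678 with RLE scaling, 671 with upper-quartile scaling (202 higher, 469 lower, the lower share falling from 78.3% to 69.9%), 666 with no filter on low counts, 672 with another filter and 685 without robust estimation. DESeq2 called 906, of which 257 were higher, and all 686 were among them. The fit to only the 6 libraries compared called 1091, 345 of them higher, with 676 shared. A test against a log2 fold change of 1 called 161 (25 higher, 136 lower). Without SvbREP replicate 3, an alternative chosen after seeing the data, 932 genes were called (287 higher, 645 lower), with 684 shared. Leaving out each of the 6 libraries in turn gave 407 to 549 calls, with 76 to 118 higher and 331 to 431 lower; these fits have fewer libraries. The causes of the other shifts were not tested. Of 285 called genes of the lists, the largest changes and those singled out, 156 were called in all 6 of those fits, and none turned its direction under any alternative.

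A replicate block, fitted by the number in the labels, gave 864 calls (228 higher, 636 lower), of which 680 were shared. The labels do not say that a number marks a shared day. Deviations of same-numbered libraries from their group means correlated at 0.232, 0.148 and 0.062, and all 6 libraries correlated best with their own number, which is a hint from the data and not from the design.

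For ovo, leaving out a library gave log2 fold changes of 1.39 to 4.62, past the threshold only without control replicate 2 (adjusted p = 0.00317). With all libraries its adjusted p ran from 0.0641 without robust estimation to 0.891 against a log2 fold change of 1. The median log2 fold change of all genes moved by 0.016 with RLE scaling and by 0.098 with upper-quartile scaling. Depth limits genes with few counts: 353 to 544 genes of a library had no count.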

Other observations

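Of the 686 called genes, 470 were in no list, 379 of those that fell and 91 of those that rose. The groups below were put together after the values were seen, and no test was made of them. Genes of sphingolipid metabolism lay lower in the svb RNAi-labelled libraries. The ceramide desaturase gene ifc had 98.4, 116 and 90.2 CPM, against 260.1, 288 and 257 CPM in the control (log2 fold change -1.40 ± 0.18, adjusted p = 7.76e-05), and lace, a subunit of the enzyme of the first step, had 122, 113 and 96.8 CPM, against 225, 201 and 297 CPM (log2 fold change -1.12 ± 0.19, adjusted p = 0.00101). GlcT, which adds glucose to ceramide, had 41.1, 51.1 and 30.3 CPM, against 217, 189 and 286 CPM (log2 fold change -2.50 ± 0.38, adjusted p = 0.000646). Every svb RNAi-labelled library of these 3 genes lay below every control. The ceramide transfer protein cert (log2 fold change -1.34 ± 0.22), the ceramidase CDase (-1.69 ± 0.25), the lyase Sply (-1.42 ± 0.26) and the glycolipid enzyme egh (-1.27 ± 0.21) fell too, and so did Kdsr (-1.16, adjusted p 0.0925 to 0.164 without svb RNAi-labelled replicates 2 or 3 or control replicates 1, 2 or 3) and Cerk (-0.94, adjusted p 0.0520 to 0.158 without svb RNAi-labelled replicates 1, 2 or 3 or control replicates 2 or 3), whose calls hung on single libraries. Spt-I (-0.71, adjusted p = 0.0893), the ceramide synthase gene schlank (-0.49, adjusted p = 0.274), SMSr (adjusted p = 0.465), Sk1 (adjusted p = 0.706), Sk2 (adjusted p = 0.845) and bwa (adjusted p = 0.425) did not pass.

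Of 46 tested genes of DNA repair, 6 were called higher (13%), beside 1.85% of all genes. None was called lower, 40 did not pass, and the median log2 fold change was 0.48. PolZ1, the catalytic subunit of polymerase zeta, had 96.2, 93.3 and 88 CPM in the svb RNAi-labelled libraries, against 37.2, 37.4 and 44.1 CPM in the control (log2 fold change 1.23 ± 0.21, adjusted p = 0.000941), and the mismatch repair gene Msh6 had 75.2, 62 and 60.1 CPM, against 32.4, 29.2 and 34.9 CPM (log2 fold change 1.03 ± 0.21, adjusted p = 0.00403). The exons of PolZ1 overlap those of Nop17l, and the exons of Msh6 those of FucTA. The Fanconi anaemia pair Fancd2 (1.45, adjusted p 0.0668 to 0.0941 without svb RNAi-labelled replicate 1 or control replicates 2 or 3) and FANCI (1.28, adjusted p 0.0780 to 0.159 without svb RNAi-labelled replicates 1 or 2 or control replicates 1 or 3), the ATM kinase tefu (0.79, adjusted p 0.0658 to 0.114 without svb RNAi-labelled replicate 3 or control replicates 2 or 3) and Ku80 (0.99, adjusted p 0.0622 to 0.135 without svb RNAi-labelled replicates 1 or 2 or control replicates 1, 2 or 3) were called as well, but not in every fit that left out a library. Among single enzymes, GCS2beta, a subunit of the enzyme that trims glucose from new glycoproteins, had 22.6, 31.1 and 8.10 CPM, against 102, 98.6 and 84.3 CPM (log2 fold change -2.21 ± 0.34, adjusted p = 0.000491), and overlaps Lamtor3. Its partner subunit gene GCS2alpha had 346, 402 and 278 CPM, against 356, 403 and 396 CPM, with overlapping groups (adjusted p = 0.773). The transporter genes Picot and Nhe2 fell (-4.42 ± 0.56 and -3.83 ± 0.49). Picot had 3.76, 1.31 and 4.45 CPM, against 56.4, 50.8 and 94.6 CPM, and Nhe2, a sodium/proton exchanger that overlaps CG46307, had 5.33, 2.95 and 5.56 CPM, against 56.2, 47.3 and 93.2 CPM.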
